A study of Caenorhabditis elegans with 10 samples.

Results

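The glutathione S-transferase genes of *C. elegans* were taken as every gene whose symbol begins with gst-, gstk- or gsto-, which gave 49 of the 19985 genes measured. Where a gene had several transcripts, the one with the highest mean level stood for it, and 31 of the 49 (63.3%) reached 1 FPKM in at least 1 condition, against 10509 of all 19985 genes (52.6%). FPKM, a fragment count scaled by transcript length in kilobases and by the number of mapped reads, is used to compare levels between genes and between conditions. Its sum over all genes can differ between conditions. Total RNA was sequenced from whole N2 animals, the standard wild-type laboratory strain, which were fed OP50 bacteria and grown at 20°C to 1-day-old adults. They were then collected without cooling (20°C), after cold adaptation at 10°C, or after that adaptation and a stay at 4°C that lasted 1 day, 3 days or 5 days. Each of the 5 conditions had 2 replicates among the 10 samples. For the time at 10°C the protocol gives 2 h and the treatment labels 3 h, and for the longest exposure the sample names give 5 days and the treatment labels 3 days. Conditions are named here after the protocol and the sample names.

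Glutathione S-transferases join the tripeptide glutathione to reactive, mostly lipophilic compounds, which can then be exported from the cell. Some members also reduce lipid peroxides, isomerise small metabolites or bind ligands without changing them. In *C. elegans* much of this family is made in the intestine and hypodermis, and several members, *gst-4* above all, are widely used as readouts of the oxidant-responsive transcription factor SKN-1. Most worm members form a large nematode-rich group of short genes. The remainder belong to classes shared with mammals, namely pi (*gst-1*, *gst-10*), kappa (*gstk-1*, *gstk-2*), omega (*gsto-1* to *gsto-3*, *gst-44*) and zeta (*gst-42*, *gst-43*).

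The deposited table held 1 value per transcript and condition, which is taken here to combine the replicates. The spread between replicates therefore cannot be given, no difference was tested, and "higher" or "lower" below without a fold means only that 1 column exceeded the other. A gene was called when 2 conditions differed at least 2-fold on the log2(FPKM + 0.1) scale, which understates the change of genes with low values. Reads assigned to transcripts numbered between 70741449 (day 5 at 4°C) and 85103831 (day 1 at 4°C) per condition, and the 31 expressed members had between 13 and 18643 reads in a condition. The 95% limits in square brackets (Wilson limits for FPKM) cover counting error only, and reads are not independent molecules. Since whole animals were measured, less RNA per cell and fewer cells of a type cannot be told apart.

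Of the 31 expressed members, 22 were called in at least 1 of 5 comparisons, a count for which the share of all genes was not computed. Cold adaptation at 10°C gave a single call. At 10°C against 20°C, 1 member was higher, *gst-22*, and 0 were lower, where 1.27% of all 10509 genes were called higher and 0.933% lower. The median log2 ratio was -0.05 for the members and -0.02 for all genes.

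On the first day at 4°C members were called in both directions. Against 10°C, 6 of 31 members (19.4%) were higher, namely *gst-4*, *gst-12*, *gst-15*, *gst-16*, *gst-24* and *gst-34*, and 4 (12.9%) were lower, namely *gst-21*, *gst-22*, *gst-28* and *gsto-1*. Over all genes, 5.49% were called higher and 5.42% lower. Centring each comparison on the median of all genes changed the members' counts to 8 higher and 3 lower (all genes 639 and 501). It added *gst-30* and *gsto-3* to the higher ones, and *gst-22* was no longer called. A pseudocount of 1 FPKM left 3 higher and 2 lower (all genes 365 and 228), and ended the calls of *gst-12*, *gst-15*, *gst-34*, *gst-21* and *gsto-1*. At day 3 against day 1, 6 members were higher (*gst-4*, *gst-5*, *gst-12*, *gst-14*, *gst-16*, *gst-30*), beside 1.57% of all genes. Lower at day 3 than at day 1 were 3 members (*gst-26*, *gst-42*, *gsto-1*; 9.68%), beside 4.65% of all genes, and the call of *gsto-1* was lost with a pseudocount of 1 FPKM.

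From day 3 to day 5 the direction was mostly downward. No member (0 of 31) was called higher at day 5, where 0.152% of all genes were, and 6 members (19.4%) were lower, namely *gst-4*, *gst-13*, *gst-16*, *gst-22*, *gst-34* and *gst-41*, where 4.98% of all genes were. With a pseudocount of 1 FPKM the call of *gst-41* was lost. Day 5 lay below day 3 in 25 of the 31 members, and the median log2 ratio was -0.46 for the members and 0.02 for all genes. Set against 20°C, day 5 had 8 members higher (25.8%) and 10 lower (32.3%), beside 5.4% and 16.7% of all genes. The higher ones were *gst-4*, *gst-5*, *gst-12*, *gst-14*, *gst-16*, *gst-24*, *gst-30* and *gst-35*, and the lower ones *gst-6*, *gst-10*, *gst-13*, *gst-21*, *gst-26*, *gst-28*, *gst-36*, *gst-42*, *gsto-1* and *gstk-1*. A pseudocount of 1 FPKM ended the calls of *gst-35* among the higher and of *gst-6*, *gst-13*, *gst-21* and *gst-36* among the lower. In this comparison the median of all genes was itself shifted to -0.11 (members -0.43). After centring the counts were 10 higher and 8 lower (all genes 662 and 1594), with *gst-1* and *gstk-2* added and *gst-13* and *gst-36* lost. Day 3 against 20°C, set beside the 5 comparisons for the gene runs described below, had 12 members higher (38.7%) and 9 lower (29.0%), where 7.46% of all genes were higher and 12.3% lower. *gstk-2* (higher) and *gst-44* (lower) passed 2-fold there and in none of the 5. Day 3 against 20°C was added after the values were seen, and its shares lean in part on the filter. Among its higher members, *gst-12*, *gst-14*, *gst-30* and *gst-34* passed the filter only after the stay at 10°C. Among its lower members, *gst-21*, *gst-28*, *gst-44* and *gsto-1* passed it only at 20°C or 10°C.

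**Figure D1:**
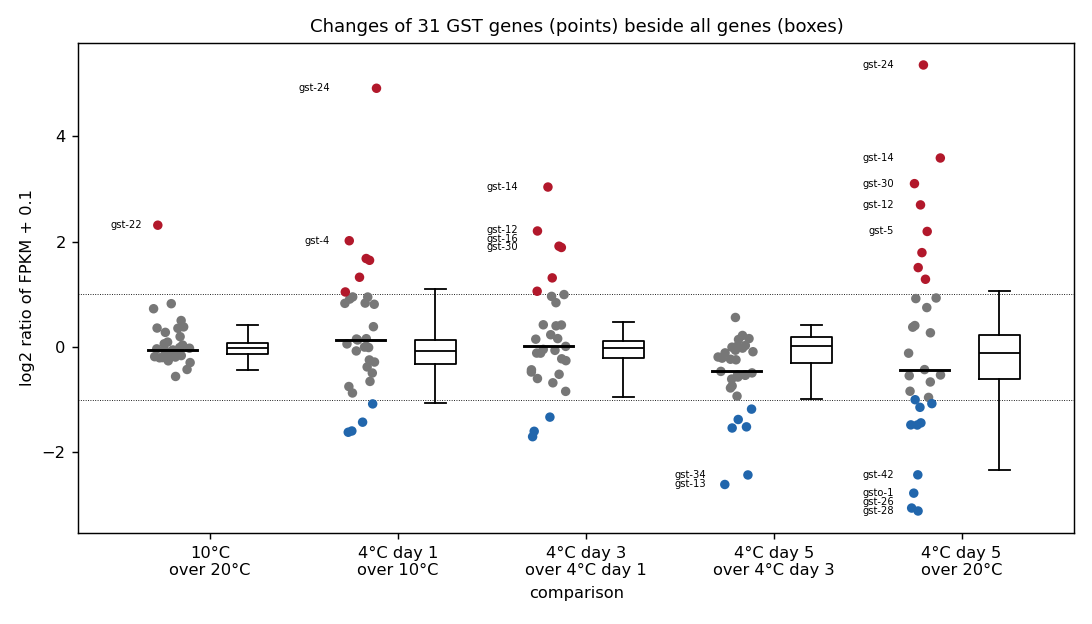
Log2 ratio of FPKM + 0.1 of each of the 31 expressed glutathione S-transferase genes (points) in each of the 5 comparisons, with their median as a bar and dotted lines at 2-fold; boxes show the quartiles and 5th to 95th percentiles of all 10509 genes. Red points (called higher) and blue points (called lower) number 1 and 0 at 10°C, 6 and 4 on day 1, and 8 and 10 for day 5 over 20°C.

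Members most often had their highest level on day 3 or at 20°C. Day 3 at 4°C was the peak of 12 members (38.7%), against 12.2% of all genes, and 20°C was the peak of another 12 (38.7%), against 30.7%. Only 2 members (6.45%) peaked at day 5, where 27.3% of all genes did. These counts were not tested. They lean in part on the filter, since 4 members (*gst-12*, *gst-14*, *gst-30*, *gst-34*) reached 1 FPKM only at 4°C, 4 (*gst-21*, *gst-28*, *gst-44*, *gsto-1*) only at 20°C or 10°C, and 17 in all 5 conditions.

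**Figure D2:**
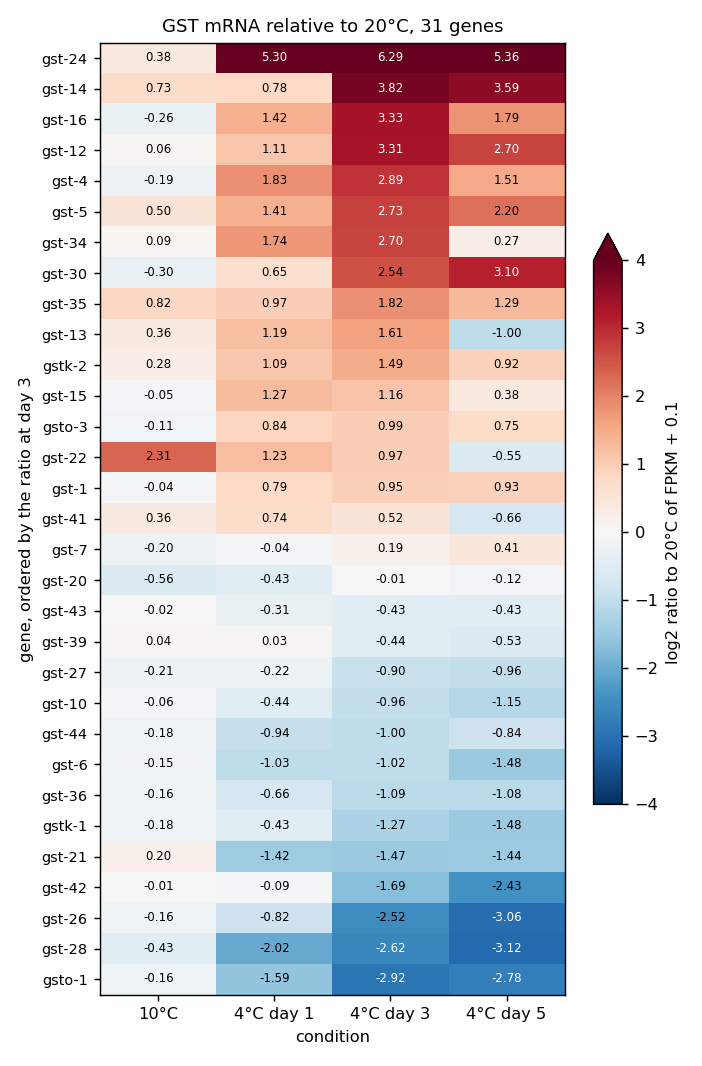
Log2 ratio of FPKM + 0.1 to 20°C (colour and printed value) for the 31 expressed members, ordered by day 3, at 10°C and on days 1, 3 and 5 at 4°C. The column for day 3 runs between 6.29 for *gst-24* and -2.92 for *gsto-1*, and the column for 10°C lies between -0.56 and 0.82 apart from *gst-22*.

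Summed over the family, transcript levels were 369 FPKM at 20°C, 364 at 10°C, 565 on day 1, 717 on day 3 and 582 on day 5 at 4°C. Most of that sum came from *gst-1* and *gst-7*, which together made up between 56.2% (day 3) and 71.0% (day 5) of it. The pi class gene *gst-1* (chromosome III, 9059331 to 9060181) was the most abundant member in every condition. It measured 159.7 FPKM at 20°C, 156 at 10°C, 277 [273, 281] on day 1, 309 on day 3 and 304 on day 5. The 3 values at 4°C thus all lay above both warmer ones, but the step between day 1 and 10°C, a log2 ratio of 0.83 [0.79, 0.86], stayed under 2-fold. For *gst-7* (chromosome II, 4882062 to 4883358) the values were 82.1, 71.4, 79.6, 93.5 and 109 FPKM in the same order, a range too narrow for a call in any comparison. Without this pair the family sum was 128 FPKM at 20°C, 137 at 10°C, 209 on day 1, 314 on day 3 and 169 on day 5.

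The largest change belonged to *gst-24*, a gene of 2 exons on the reverse strand of chromosome II (13610443 to 13611366). Its level was 1.11 FPKM [0.868, 1.41] at 20°C, 1.47 [1.198, 1.81] at 10°C, 47.4 [45.7, 49.1] on day 1, 94.5 [92.1, 97.0] on day 3 and 49.4 [47.5, 51.4] on day 5. The values at 4°C did not come near those at 20°C or 10°C, and the counting limits of day 1 and day 5 overlapped. On day 1 the log2 ratio to 10°C was 4.92 [4.63, 5.20], and by FPKM alone the level on day 3 was 85.5-fold that at 20°C. The further step between day 3 and day 1 fell just short of a call, with a log2 ratio of 0.996. Among the 49 genes ranked by level, *gst-24* stood at place 2 on day 3, against place 24 at 20°C, and on day 3 its limits overlapped those of *gst-7*.

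*gst-4*, the standard SKN-1 reporter gene, lies on chromosome IV (10142225 to 10143099, forward strand, 4 exons) and also had its highest level on day 3. It measured 7.11 FPKM at 20°C, 6.21 at 10°C, 25.5 on day 1, 53.2 on day 3 and 20.4 on day 5. It was called in all 3 steps at 4°C, with log2 ratios of 2.02 [1.86, 2.18] for day 1 over 10°C, 1.06 [0.97, 1.15] for day 3 over day 1, and -1.38 [-1.48, -1.28] for day 5 over day 3. Part of its exon sequence (8.89%) overlaps *dhs-12* on the same strand. That neighbour varied far less, between 24.3 FPKM at 10°C and 38.6 FPKM on day 5. At 20°C *dhs-12* had 25.7 FPKM, above *gst-4*, and a read in the overlap counted for both genes. Some of the *gst-4* reads at 20°C and 10°C may therefore come from *dhs-12*, which would make the ratios of *gst-4* to those conditions too small. How many do was not examined.

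**Figure D3:**
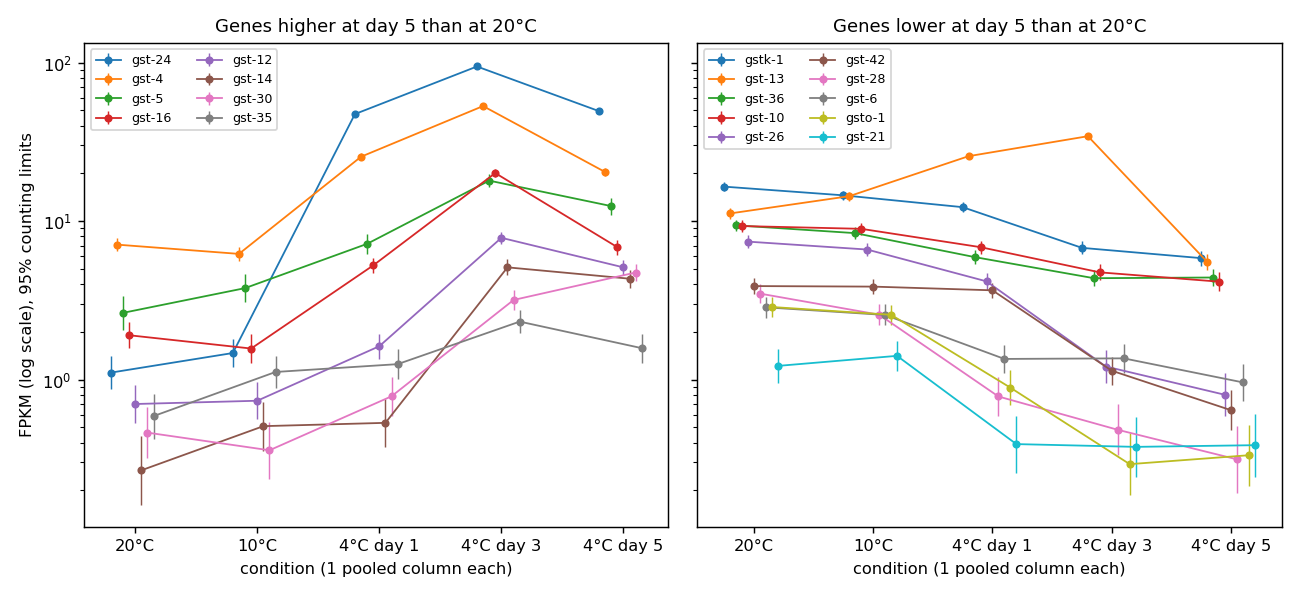
FPKM (log axis) in the 5 conditions for the 8 members called higher (left) and the 10 called lower (right) on day 5 at 4°C than at 20°C, with error bars for the 95% counting limits. On the left all but *gst-30* were highest on day 3, and on the right *gst-13* alone had a peak on day 3.

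*gst-24* belongs to an unbroken run of 9 members on chromosome II (13608154 to 13630887, 22.7 kb), all on the reverse strand, of which 6 were expressed. Another member of the run, *gst-16*, had 1.90 FPKM at 20°C, 1.57 at 10°C, 5.25 on day 1, 20.1 on day 3 and 6.85 on day 5. It was called upward on day 1 (log2 ratio 1.68 [1.36, 2.00]) and again on day 3 (1.92 [1.74, 2.09]), and downward on day 5 (-1.54 [-1.71, -1.37]). Day 3 was thus its peak, as it was for *gst-24*.

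*gst-12* and *gst-14*, in the same run, had their larger change after day 1. *gst-12* had 0.701, 0.735, 1.62, 7.84 and 5.11 FPKM from 20°C through day 5, with the larger step between day 3 and day 1 (log2 ratio 2.20 [1.93, 2.48]). *gst-14* stayed at 0.268, 0.508 and 0.533 FPKM through day 1, then measured 5.11 FPKM on day 3 and 4.33 FPKM on day 5. Its log2 ratio of 3.04 [2.59, 3.49] for day 3 over day 1 was the highest of the 31 members in that comparison, on 290 reads at day 3 and 32 at day 1. Both genes were still at least 2-fold above 20°C on day 5.

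*gst-15* of this run was called on day 1 only, with 1.33 FPKM at 20°C, 1.28 at 10°C, 3.36 on day 1, 3.09 on day 3 and 1.76 on day 5. *gst-20*, at the end of the run next to *gst-24*, was not called in any comparison and had 6.85 FPKM on day 3, against 6.88 FPKM at 20°C. So 5 of the 6 expressed members of the run were at least 2-fold higher on day 3 than at 20°C, where 7.46% of all genes were. Of these 5, *gst-12* and *gst-14* passed the filter through their levels at 4°C alone.

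A second run on chromosome II (15163817 to 15185389, 21.6 kb) holds 10 genes, 9 of them members and 6 expressed, with lower and higher members among them. At one end, *gst-26* had 7.42 FPKM at 20°C, 6.62 at 10°C, 4.17 on day 1, 1.21 on day 3 and 0.801 on day 5, so that each value was below the one before it. Its log2 ratio was -1.70 [-2.07, -1.34] for day 3 over day 1 and -3.06 [-3.49, -2.64] for day 5 over 20°C. *gst-28* had 3.49, 2.57, 0.782, 0.482 and 0.314 FPKM, also in descending order, and its called step came earlier, on day 1 (-1.60 [-2.02, -1.17]). *gst-27*, which lies between them, showed the same order of values with a smaller range, 14.2, 12.3, 12.2, 7.60 and 7.28 FPKM, and just missed 2-fold on day 5 over 20°C (-0.96 [-1.13, -0.79]).

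Beside *gst-34* at the other end lies *gst-32*, which was under the filter with 2 reads on day 3, against 14 at 20°C. *gst-34* itself measured 0.224 FPKM at 20°C, 0.246 at 10°C, 0.983 on day 1, 2.01 on day 3 and 0.291 on day 5, a peak that was gone by the last day. It was called upward on day 1 (log2 ratio 1.65 [1.03, 2.26]) and downward on day 5 (-2.43 [-3.03, -1.84]), from only 13 to 118 reads. *gst-35* measured 0.588, 1.12, 1.25, 2.32 and 1.58 FPKM and was called for day 5 over 20°C alone (1.29 [0.79, 1.78]). The sixth expressed gene of the run, *gst-39*, stayed between 0.725 and 1.12 FPKM. Of the third run, *gst-6* to *gst-8* (chromosome II, 4879891 to 4884599), *gst-7* is described above and *gst-6* was the one called, lower on day 5 (0.960 FPKM) than at 20°C (2.86 FPKM; log2 ratio -1.48 [-1.89, -1.07]). In the other conditions *gst-6* had 2.56 FPKM at 10°C, 1.35 on day 1 and 1.36 on day 3. Neighbouring members may resemble each other enough to share reads, and this was not examined here; 0 of the 49 genes had values identical to those of another.

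**Figure D4:**
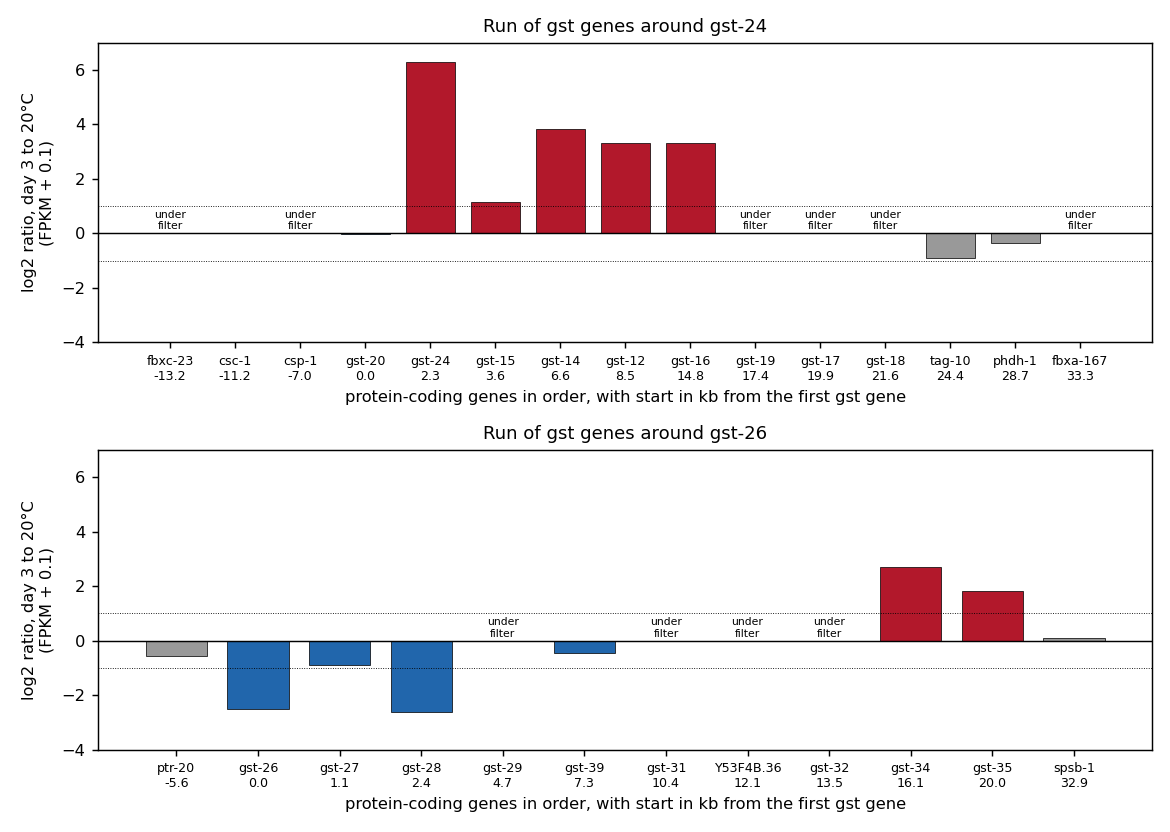
Log2 ratio of FPKM + 0.1 on day 3 at 4°C to 20°C for the protein-coding genes in and beside the 2 longer runs on chromosome II, in their order along the chromosome, with dotted lines at 2-fold and grey bars for genes of other families. In the run with *gst-24*, 5 of the 6 expressed members were at least 2-fold higher on day 3 (all genes 7.46%), whereas in the run with *gst-26* the bars of *gst-26* and *gst-28* pass 2-fold downward (all genes 12.3%) and those of *gst-34* and *gst-35* upward, and genes under the filter have no bar.

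Outside these runs, 2 further genes were called higher on day 5 than at 20°C. *gst-5* had 2.64 FPKM at 20°C, 3.78 at 10°C, 7.19 on day 1, 18.01 on day 3 and 12.4 on day 5, and was called for day 3 over day 1 (log2 ratio 1.31 [1.06, 1.56]) and for day 5 over 20°C (2.20 [1.81, 2.59]). These values are of a short transcript of 291 bases, and the full-length transcript of 725 bases had 2.15, 2.64, 5.46, 13.65 and 9.63 FPKM, with the same peak on day 3. *gst-30* had 0.463, 0.358, 0.784, 3.18 and 4.74 FPKM. Unlike the other members called higher on day 5 than at 20°C, it had its highest level on day 5, although the step over day 3 was under 2-fold (0.56 [0.29, 0.83]).

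A group of 3 genes had passing peaks and fell back to 20°C levels or below. *gst-22* (chromosome V, 16231032 to 16232282) was the one member called at 10°C. It had 3.67 FPKM at 20°C, 18.6 at 10°C, 8.75 on day 1, 7.29 on day 3 and 2.48 on day 5, giving log2 ratios of 2.31 [2.11, 2.52] for 10°C over 20°C, -1.08 [-1.23, -0.94] for day 1 over 10°C and -1.52 [-1.79, -1.24] for day 5 over day 3. *gst-13* (chromosome II, 9231457 to 9232344) had 11.2, 14.4, 25.7, 34.3 and 5.53 FPKM. Its drop on day 5 against day 3 (-2.61 [-2.78, -2.44]) had limits that overlapped those of *gst-34* and brought it to the edge of the threshold below 20°C (-1.003 [-1.19, -0.81]). *gst-41* had 2.28, 2.94, 3.88, 3.30 and 1.40 FPKM, and only its last step was called (-1.18 [-1.54, -0.82]).

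Of the 9 expressed members of the conserved classes, 4 (44.4%) were lower on day 5 than at 20°C and 0 were higher. *gst-1* (log2 ratio 0.93) and *gstk-2* (0.92) fell just short of higher, and both passed 2-fold after centring. Among the other 22, 6 (27.3%) were lower and 8 higher, beside 16.7% and 5.4% of all genes. In the omega class, whose enzymes act as thioltransferases and dehydroascorbate reductases, *gsto-1* (chromosome III, 7945542 to 7947018) had 2.87 FPKM at 20°C, 2.56 at 10°C, 0.889 on day 1, 0.293 on day 3 and 0.333 on day 5. It was called downward on day 1 (log2 ratio -1.43 [-1.81, -1.04]) and again on day 3 (-1.33 [-1.92, -0.75]), where it had 19 reads, against 61 on day 1. *gst-44* had 1.17, 1.02, 0.564, 0.536 and 0.610 FPKM and was called in none of the 5 comparisons. *gsto-2*, under the filter, had between 1 and 6 reads in each condition (0.059, 0.084, 0.014, 0.073 and 0.017 FPKM). *gsto-3* had 8.89, 8.25, 16.05, 17.8 and 15.01 FPKM, higher at 4°C than before it but with no step past 2-fold, the largest being 0.95 [0.74, 1.17] on day 1 over 10°C. These values are of a short transcript of 372 bases. The other transcript of *gsto-3*, of 930 bases, had 5.33, 5.16, 9.07, 9.67 and 8.34 FPKM, with a log2 ratio of 0.80 on day 1 over 10°C.

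*gst-42* and *gst-43* are the zeta class members, and *gst-42* encodes the maleylacetoacetate isomerase of tyrosine breakdown. *gst-42* (chromosome X, 11726264 to 11727936) measured 3.89, 3.86 and 3.66 FPKM through day 1, then 1.14 on day 3 and 0.641 on day 5. The drop came between days 1 and 3 (log2 ratio -1.60 [-1.91, -1.29]). *gst-43* had 4.10, 4.03, 3.29, 3.03 and 3.02 FPKM and was not called.

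The kappa class, which is mitochondrial and peroxisomal in mammals, split. *gstk-1* (chromosome II, 9656705 to 9657719) had 16.5 FPKM at 20°C, 14.5 at 10°C, 12.2 on day 1, 6.78 on day 3 and 5.84 on day 5, with no single step past 2-fold but a log2 ratio of -1.48 [-1.66, -1.31] for day 5 over 20°C. *gstk-2* had 0.879, 1.09, 1.98, 2.65 and 1.75 FPKM and was called in none of the 5 comparisons. The pi class gene *gst-10*, whose product clears the lipid peroxidation product 4-hydroxynonenal, had 9.31, 8.94, 6.85, 4.75 and 4.15 FPKM, and was called lower for day 5 over 20°C alone (-1.15 [-1.37, -0.92]). Its class partner *gst-1* ran the other way, as given above.

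The last pair of called genes had low or overlapped transcripts. *gst-36* had 9.404, 8.396, 5.93, 4.36 and 4.41 FPKM, with a log2 ratio of -1.08 [-1.29, -0.86] for day 5 over 20°C. It overlaps *scav-5* on the other strand over 12.3% of its exon sequence, and *scav-5* was itself lower on day 5 (0.188 FPKM) than at 20°C (2.33 FPKM). Whether the counting used strand is not given in the sources used here, so reads of the 2 genes cannot be told apart where they overlap. *gst-21* had 1.2197, 1.41, 0.392, 0.376 and 0.386 FPKM, with a called drop on day 1 over 10°C (-1.62 [-2.19, -1.05]) and no called step after it. Apart from *gst-36* and *gst-4*, exon overlap with another gene was found for *gsto-1*, *gst-22*, *gst-44* and *gstk-2*, and the other 25 expressed members had none.

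The members with no call in any of the 5 comparisons numbered 9, namely *gst-1*, *gst-7*, *gst-20*, *gst-27*, *gst-39*, *gst-43*, *gst-44*, *gsto-3* and *gstk-2*. The 18 genes under the filter were *gst-2*, *gst-3*, *gst-8*, *gst-9*, *gst-11*, *gst-17*, *gst-18*, *gst-19*, *gst-23*, *gst-25*, *gst-29*, *gst-31*, *gst-32*, *gst-33*, *gst-37*, *gst-38*, *gst-40* and *gsto-2*. None of these 18 had more than 57 reads in a condition. *gst-9*, the highest of them, had 0.919 FPKM at 20°C, against 1.12 FPKM at 10°C for *gst-39*, the expressed member with the lowest peak. For *gst-17*, *gst-18* and *gst-37* at least 1 condition had 0 reads, which allows up to 3 reads there, and changes in such genes were not detectable at this depth.

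Many of the members, though not all, lie on chromosome II, and many are genes of 2 exons. Of the 31 expressed members, 18 (58.1%) lie on chromosome II, against 17.1% of all expressed genes. Genes of 2 exons made up 17 of the 31 (54.8%), against 10.1% of all expressed genes. The 2 longer runs on that chromosome hold 6 expressed members each. Among the 8 members higher on day 5 than at 20°C there were 6 with 2 exons, and among the 10 lower ones 4. Of these, *gst-12*, *gst-14*, *gst-16*, *gst-24* and *gst-35* (higher) and *gst-26* and *gst-28* (lower) lie in those runs. Exon number and place in a run therefore cannot be told apart here.

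Genes that make and recycle glutathione were called in none of the 5 comparisons, although the glutaredoxin gene *glrx-10* was at least 2-fold higher on day 3 (101.7 FPKM) than at 20°C (46.5 FPKM), a log2 ratio of 1.13. For *gcs-1*, the catalytic subunit of glutamate-cysteine ligase and itself a SKN-1 target, levels lay between 27.2 FPKM at 10°C and 36.3 FPKM on day 5. Of the 3 synthesis genes (*gcs-1*, *gss-1* and E01A2.1) 0 were called in any comparison. The same held for all 6 genes of glutathione reduction, among them the reductase *gsr-1* (78.4, 73.8, 85.4, 91.6 and 85.7 FPKM), for all 8 *mrp* transporters, which export conjugates, and for 6 regulators including *skn-1* and its repressor *wdr-23*. Between successive conditions, 0.152% to 5.49% of all genes were called in a given direction. For day 5 over 20°C, 5.4% were higher and 16.7% lower. Lists of 3 to 8 genes are too short to set 0 calls apart from these shares. *skn-1* measured 31.4, 35.2, 37.5, 39.9 and 35.6 FPKM and *wdr-23* 41.1, 42.1, 43.1, 45.0 and 38.4 FPKM in the 5 conditions. These are transcript levels, and the activity of SKN-1 was not measured.

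Glutathione peroxidases, which spend glutathione on peroxides, were lower where they were called. Of 5 expressed *gpx* genes, 2 were lower on day 5 than at 20°C and 0 were higher, beside 16.7% and 5.4% of all genes. *gpx-2*, the highest of them at 20°C, was not called and went the other way (23.9, 25.4, 33.5, 41.1 and 39.9 FPKM). *gpx-1* (11.9 FPKM at 20°C, 6.88 on day 5) and *gpx-3* (1.45 and 1.15) were lower without a call. *gpx-5* had 12.6, 9.68, 5.01, 2.66 and 1.01 FPKM, and *gpx-7* had 5.23, 3.82, 1.24, 0.310 and 0.374 FPKM. Higher at 4°C were 2 other genes that respond to oxidants in worms. *nit-1*, a nitrilase gene, measured 1.92 FPKM at 20°C, 1.81 at 10°C, 28.9 on day 1, 50.4 on day 3 and 35.6 on day 5 (log2 ratio 3.93 for day 1 over 10°C). *sdz-8*, named as a SKN-1-dependent transcript of the embryo, measured 1.68, 1.68, 4.10, 11.8 and 13.7 FPKM and did not drop on day 5. The fourth gene of that list, *dhs-8*, was under the filter with 2 to 37 reads.

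**Figure D5:**
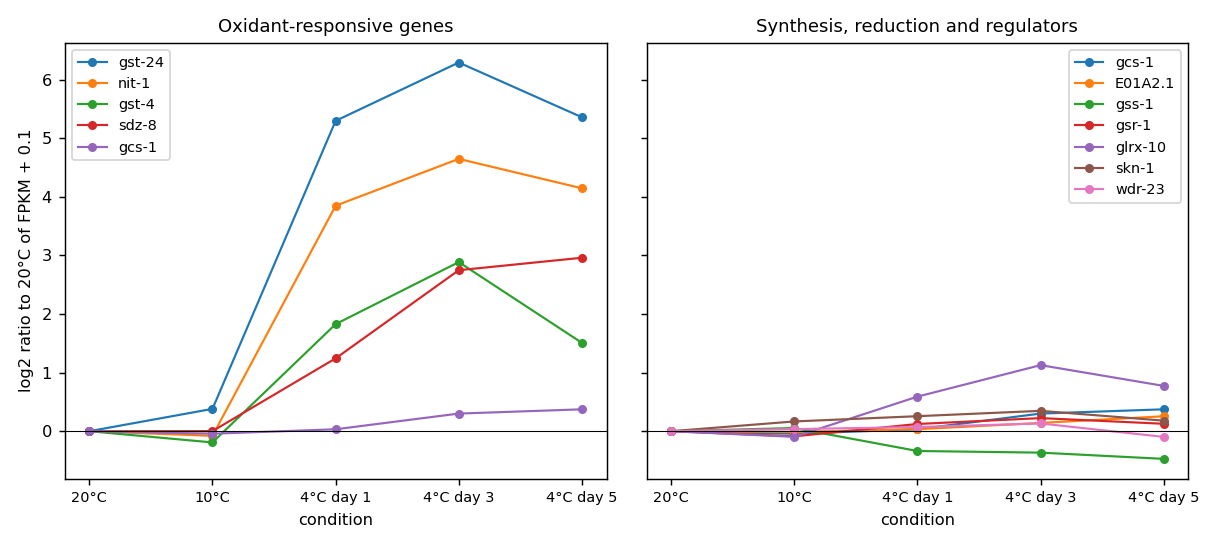
Log2 ratio of FPKM + 0.1 to 20°C in the 5 conditions for *gst-24* and *gst-4* beside other oxidant-responsive genes (left) and for genes of glutathione synthesis, glutathione reduction and SKN-1 regulation (right). *nit-1* and *sdz-8* were more than 2-fold higher on each day at 4°C, and on the right only *glrx-10* passed 2-fold, on day 3.

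The other large detoxification families were the UDP-glucuronosyltransferases (*ugt*) and cytochromes P450 (*cyp*). Their medians lay below that of the transferases on day 1 against 10°C, day 3 against day 1 and day 5 against 20°C. On day 5 against day 3 they did not. On day 1 against 10°C, 3 of 36 expressed *ugt* genes were higher and 11 lower (median log2 ratio -0.47). Of 35 *cyp* genes, 4 were higher and 8 lower (median -0.42), while the transferases had a median of 0.13. Of all genes, 5.49% were higher and 5.42% lower. On day 3 against day 1, 0 *ugt* genes were higher and 7 lower, and 0 *cyp* genes were higher and 9 lower. Of all genes, 1.57% were higher and 4.65% lower there, and the medians were -0.42 (*ugt*), -0.35 (*cyp*) and 0.01 (transferases). On day 5 against 20°C, 2 *ugt* genes were higher and 24 lower, and 0 *cyp* genes were higher and 19 lower. Of all genes, 5.4% were higher and 16.7% lower. The medians were -1.34 and -1.36, beside -0.43 for the transferases. On day 5 against day 3 the medians were -0.35 (*ugt*) and -0.37 (*cyp*), beside -0.46 for the transferases. No test of these differences was possible.

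Markers of the tissues in a whole animal also moved during the exposure. Summed over 5 intestinal markers, the level was 358 FPKM at 20°C, 342 at 10°C, 292 on day 1, 279 on day 3 and 206 on day 5, and *elt-2* and *ges-1* were called lower on day 5 than at 20°C. Most of that sum was the protease gene *asp-1* (141 FPKM on day 5, against 263 FPKM at 20°C). The brush border actin gene *act-5* had 61.7, 71.8, 93.4, 87.9 and 47.7 FPKM, and the intermediate filament gene *ifb-2* had 22.2, 25.6, 23.8, 22.8 and 13.9 FPKM. Pharyngeal muscle markers peaked on day 3, as 12 members did, with *myo-1* and *myo-2* summing to 17.1, 21.5, 22.3, 35.1 and 16.3 FPKM, and both were called lower on day 5 than on day 3. The neuronal gene *rab-3* also peaked there (2.96, 3.54, 3.47, 5.90 and 2.69 FPKM). Another neuronal marker, *unc-119*, was lowest on day 3 (7.26, 5.94, 4.79, 3.89 and 4.63 FPKM). The 3 neuronal markers together lay between 61.5 FPKM at 10°C and 84.2 FPKM on day 5. Most of that sum was *snb-1* (53.6 FPKM at 20°C, 76.8 on day 5). Over 3 hypodermal markers the sum was 285, 261, 317, 192 and 192 FPKM. Nearly all of that sum was *col-19* (284 FPKM at 20°C, 191 on day 5), and *rol-6* was under the filter. *dpy-7* stayed between 1.18 FPKM on day 5 and 1.69 FPKM at 10°C, and was not lower on day 3 than at 20°C. Over 3 body wall muscle markers the sum was 128, 129, 133, 123 and 66.4 FPKM. The 3 oocyte markers summed to 431, 450.04, 335, 284 and 265 FPKM, and the 3 germline markers stayed between 297 and 327 FPKM. The part of tissue composition in the changes of single members was not tested.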

How the data were processed

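Total RNA of whole animals was sequenced in 10 samples, 2 per condition, and the authors deposited FPKM values per transcript in 1 column for each of 5 conditions. According to the submitters' notes, reads were trimmed with fastp 0.23.4 and aligned with STAR 2.7.11b to WBcel235, and DESeq2 1.42.1 was also named. The annotation release, the use of strand and the treatment of replicates and of reads matching several places are not given in the sources used here. A further 1 column, of no sample in the series, was not used.

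Genes were matched to the Ensembl 115 annotation of WBcel235 (49 of 49 members), which gave positions, exon lengths and overlaps. Multiplying FPKM by exon length and depth gave whole reads for 100% of values (tolerance 0.01 reads), and a read counted for every transcript it overlapped. Of these recovered reads, 95% Wilson limits were computed for FPKM, and delta-method limits for log2 ratios. A count of 0 was taken to allow 3 reads. Genes below 1 FPKM in all 5 conditions were left out, the pseudocount was 0.1 FPKM, and called means at least 2-fold. With 1 value per condition no significance test was run. Scripts ran under Python 3.11.15 (matplotlib 3.10.9, scipy 1.17.1, pandas 2.3.3, numpy 2.4.6), and the calling step was tested on simulated data.

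All members are named. Day 3 over 20°C was added after the values were seen. Values in all conditions are given for those called, those with the 5 highest means, and those of the pi, kappa, omega and zeta classes. The members and gene lists were chosen with earlier results of these data known. Shared sequence between members, protein identity and promoter motifs were not analysed here. Alternatives were other thresholds, filters and pseudocounts, centring, and summing transcripts per gene.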

Additional observations from a re-analysis of the deposited data

How the results depend on the processing

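No paired analysis was possible because the deposited table has 1 column per condition and carries no replicate numbers, and for the same reason no replicate could be left out. Of 80 recomputed counts of called members, 62 stayed within 1.5 times the count given above. A 1.5-fold threshold gave 3 members higher at 10°C than at 20°C (318 of all 10509 genes). On day 1 against 10°C it gave 12 higher and 7 lower (all genes 1006 and 1238). It gave 6 lower on day 3 than on day 1 (all genes 1124) and 10 lower on day 5 than on day 3 (1478). A 4-fold threshold left 2 members higher and 0 lower on day 1 than at 10°C (all genes 198 and 111). It left 2 higher and 0 lower on day 3 than on day 1 (all genes 43 and 81). On day 5, 2 members were lower than on day 3 (all genes 31). Against 20°C, day 5 had 5 members higher and 4 lower, where 746 of all genes were lower and fewer were higher. With a filter of 5 FPKM, which 17 members passed, 1 member was lower on day 1 than at 10°C (all genes 192). On day 3 against day 1, 1 was lower (all genes 285), and on day 5 against 20°C, 5 were lower (717). The number of all genes past that filter is not given here. A pseudocount of 1 FPKM gave 3 higher and 2 lower on day 1 than at 10°C (all genes 365 and 228). It gave 6 lower on day 5 than at 20°C (all genes 1074). Of 44 called ratios of single members, 0 changed sign under any alternative, which carries no weight. A pseudocount cannot reverse the order of 2 values, and a smaller one only enlarges a ratio. Centring shifted ratios by far less than 2-fold, and summing changed only members with several transcripts. At least 2-fold differences were left for 32 of the 44 with a pseudocount of 1 FPKM (the 12 lost are named with their comparisons above), for 44 with one of 0.01 FPKM, for 44 with transcripts summed per gene, and for 41 after centring, which lost *gst-22* on day 1 over 10°C and *gst-13* and *gst-36* on day 5 over 20°C. Depth limits the genes below 1 FPKM most, and the missing spread between replicates limits every comparison.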

Other observations

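The genes next to the run of *gst-24* on chromosome II were not higher on day 3 at 4°C than at 20°C by 2-fold. *csc-1* measured 47.3 FPKM at 20°C, 47.4 at 10°C, 46.3 on day 1, 47.7 on day 3 and 53.8 on day 5 at 4°C, and *phdh-1* measured 13.7, 11.5, 11.95, 10.6 and 10.6 FPKM. *tag-10* was at 16.9, 15.4, 11.4, 8.96 and 4.28 FPKM, each value below the one before it. Beside the run of *gst-26*, *ptr-20* had 1.74 FPKM at 10°C, 2.14 on day 1, 0.933 on day 3 and 0.394 on day 5, and *spsb-1* stayed between 35.3 and 41.6 FPKM.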
